A study of Homo sapiens with 12 samples.

Results

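The 8 genes described here were 7 CXC chemokines (CXCL1, CXCL2, CXCL3, CXCL5, CXCL6, CXCL8 and CXCL12) and ACKR3, the atypical receptor that removes CXCL12 from the surroundings of a cell. They were taken by gene name, a choice made with earlier results of these data known, and each matched 1 of the 48162 gene IDs of the RNA-seq count tables. IMR90 cells, which are normal diploid fibroblasts grown from human lung, were profiled in 12 libraries, 3 in each of 4 groups. RAS/shDOT1L cells carried the oncogene HRAS G12V (vector pBABE-HRASG12V) together with a hairpin RNA against DOT1L (pLKO.1-shDOT1L). RAS cells carried pBABE-HRASG12V alone per the labels. DOT1L OE cells carried human wild-type DOT1L (MSCB-hDot1lwt) and no oncogene, and control cells carried the empty pBABE vector. All cells were grown in 2% oxygen and selected for 4 days, in 3 µg/mL puromycin for RAS/shDOT1L, RAS and control and in 1 µg/mL blasticidin for DOT1L OE. The vector backbone and the drug therefore cannot be told apart from DOT1L in DOT1L OE against control. The labels do not say which of the study's hairpins against DOT1L was used, nor whether the RAS libraries carried the hairpin against GFP that the study names as a control, so an effect of the hairpin vector itself was not tested. The study asked whether DOT1L, the histone H3 lysine 79 methyltransferase, sets the output of the senescence-associated secretory phenotype (SASP), to which these chemokines belong.

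CXC chemokines are small secreted proteins that attract leukocytes. CXCL1, CXCL2, CXCL3, CXCL5, CXCL6 and CXCL8 carry a glutamate-leucine-arginine motif before their first cysteines (ELR+) and draw neutrophils through the receptor CXCR2, while CXCL6 and CXCL8 also use CXCR1. The same ligands act back on senescent fibroblasts through CXCR2, and their genes are textbook targets of NF-κB downstream of interleukin-1. CXCL12 lacks the motif, signals through CXCR4 and is typically made by resting stromal cells, and ACKR3 binds and internalizes it without activating G proteins.

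Library totals ran from 16128055 to 19503457 counts. Values per library are CPM, counts divided by TMM-scaled library size, group values are mean ± SD (n = 3), and tests are edgeR quasi-likelihood tests on the counts with Benjamini-Hochberg adjustment over all genes tested, called at an adjusted p under 0.05. Fold changes given with SE are on the log2 scale. The SE was derived from the test, as the absolute log2 change divided by the square root of its F statistic. It is therefore approximate, above all where a group held few or no counts. The study describes its libraries in some places as technical and in others as biological replicates, so p-values measure library-to-library spread alone, possibly of technical origin. DOT1L averaged 11.0 ± 0.644 CPM in RAS/shDOT1L, 84.5 ± 3.42 in RAS, 202 ± 9.19 in DOT1L OE and 31.7 ± 2.33 in control, so it followed the labels, and HRAS, counted from transgene and genome together, averaged 275 ± 13.0, 503 ± 10.0, 79.4 ± 5.46 and 85.9 ± 2.82 CPM in the same order. HRAS was thus 1.80-fold lower in RAS/shDOT1L versus RAS (log2 change -0.85, SE 0.05, adjusted p = 3.87e-16 by edgeR), and the part of this lower oncogene level in the chemokine differences was not tested. Summed fibroblast markers (8 genes) were 16126 to 16709 CPM in RAS/shDOT1L, 14621 to 15047 in RAS, 15014 to 15669 in DOT1L OE and 19405 to 19641 in control, so control stood above the other groups. Summed leukocyte markers (8 genes) were at most 3.57 CPM in any library, with CD68, ITGAM and CSF3R at 0 in all 12. Summed endothelial markers (5 genes, CDH5 at 0 except in RAS/shDOT1L) were 25.8 to 31.9 CPM in RAS/shDOT1L, 64.6 to 67.9 in RAS, 134 to 147 in DOT1L OE and 63.9 to 70.0 in control, and summed epithelial markers (7 genes, SFTPC and SCGB1A1 at 0 in all libraries) were 41.3 to 54.1, 8.60 to 17.0, 36.1 to 38.2 and 114 to 120 CPM in the same order. Most of each of these 2 sums came from 1 gene. TEK averaged 23.5, 61.1, 129 and 67.1 CPM and KRT19 averaged 48.9, 12.4, 34.4 and 115 CPM in the same order. The part of these marker levels in the chemokine differences was not tested. RAS libraries had relatively more reads on GC-rich transcripts: the gap in log2 CPM deviation between genes of the highest and the lowest GC decile was -0.09 ± 0.03 in RAS/shDOT1L, 0.72 ± 0.01 in RAS, -0.15 ± 0.08 in DOT1L OE and -0.50 ± 0.03 in control.

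The 6 ELR+ genes lie within a stretch of chromosome 4 (GRCh38, GENCODE release 44). From the lowest coordinate they are CXCL8 (ENSG00000169429, 73740519 to 73743716, plus strand), CXCL6 (ENSG00000124875, 73836640 to 73849064, plus), CXCL1 (ENSG00000163739, 73869393 to 73871308, plus), CXCL5 (ENSG00000163735, 73995642 to 73998677, minus), CXCL3 (ENSG00000163734, 74036589 to 74038807, minus) and CXCL2 (ENSG00000081041, 74097040 to 74099196, minus). CXCL12 (ENSG00000107562) is on chromosome 10, 44370165 to 44386493, minus strand, and ACKR3 (ENSG00000144476) on chromosome 2, 236567787 to 236582354, plus strand. Because members of the cluster arose as copies, read sharing was measured: of all 100-base windows in annotated transcripts, 5.34% of those of CXCL2 and 3.27% of those of CXCL3 were identical between that pair of genes, and CXCL1, CXCL6, CXCL8, CXCL12 and ACKR3 shared none with any other annotated gene. CXCL2 and CXCL3 values are uncertain to that extent. CXCL5 overlaps an antisense noncoding RNA (ENSG00000287037), with 6.03% of its windows shared, and the strand setting of the counts is not given in the sources used here.

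Promoter sequences show what the ELR+ genes share in letters. RefSeq promoter windows (GRCh38.p14, 250 bases before to 50 after the annotated start) were at hand for 7 of the 8 genes, all but ACKR3. They were searched on both strands for 4 motifs, none overlapping another in these windows: GGNNTTTCC (NF-κB), TTGCNNAA (C/EBP), TGANTCA (AP-1) and TATAAA for the TATA box. The NF-κB letters occurred in all 6 ELR+ windows and not in that of CXCL12, against 6.3% of 35116 promoter windows in the table. Positions count from the RefSeq start, which can differ from the GENCODE coordinates given above. The printed CXCL3 stretch and the TATAAA of CXCL8 lie inside the GENCODE spans of those genes. Stretches before the RefSeq start are printed in gene orientation, 5′ to 3′, with matches in capitals, to show the shared element and its surroundings (89 to 100 bases, and 30 bases for CXCL3).
CXCL1 (chr4:73869253-73869352, plus strand): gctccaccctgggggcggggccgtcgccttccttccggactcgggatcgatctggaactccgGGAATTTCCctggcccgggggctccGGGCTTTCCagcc
CXCL2 (chr4:74099236-74099335, minus strand): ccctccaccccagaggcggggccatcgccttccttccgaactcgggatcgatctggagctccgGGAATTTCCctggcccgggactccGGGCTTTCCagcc
CXCL3 (chr4:74038746-74038775, minus strand): gagctccgGGAATTTCCctggcccggccgc
CXCL5 (chr4:73998718-73998817, minus strand): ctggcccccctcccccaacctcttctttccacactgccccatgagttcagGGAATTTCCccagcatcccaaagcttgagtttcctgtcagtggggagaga
CXCL6 (chr4:73836538-73836637, plus strand): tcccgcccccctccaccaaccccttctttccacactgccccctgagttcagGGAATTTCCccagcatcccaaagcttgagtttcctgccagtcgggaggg
CXCL8 (chr4:73740429-73740517, plus strand): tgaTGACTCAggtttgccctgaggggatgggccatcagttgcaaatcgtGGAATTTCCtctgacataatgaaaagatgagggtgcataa

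All 6 ELR+ genes held the same 9 letters, GGAATTTCC, starting 77 or 78 bases before the start in CXCL1, CXCL2 and CXCL3 and 89 to 91 bases before it in CXCL5, CXCL6 and CXCL8. CXCL1, CXCL2 and CXCL3 held another NF-κB match, GGGCTTTCC, starting 53 bases before the start. CXCL8 alone among the 7 windows held the AP-1 letters, which 7.7% of all windows hold, and TATAAA, which 11.5% hold. CXCL2 alone held the C/EBP letters, on the opposite strand, against 10.5% of all windows. By global alignment of the 150 bases before the start, the ELR+ promoters formed 3 types: CXCL1, CXCL2 and CXCL3 were 86.3% to 88.8% identical to each other, CXCL5 and CXCL6 were 89.4% identical, and CXCL8 was at most 50.9% identical to any of the others. A match describes letters and not a bound site, and a site with other letters would be missed.

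**Figure D1:**
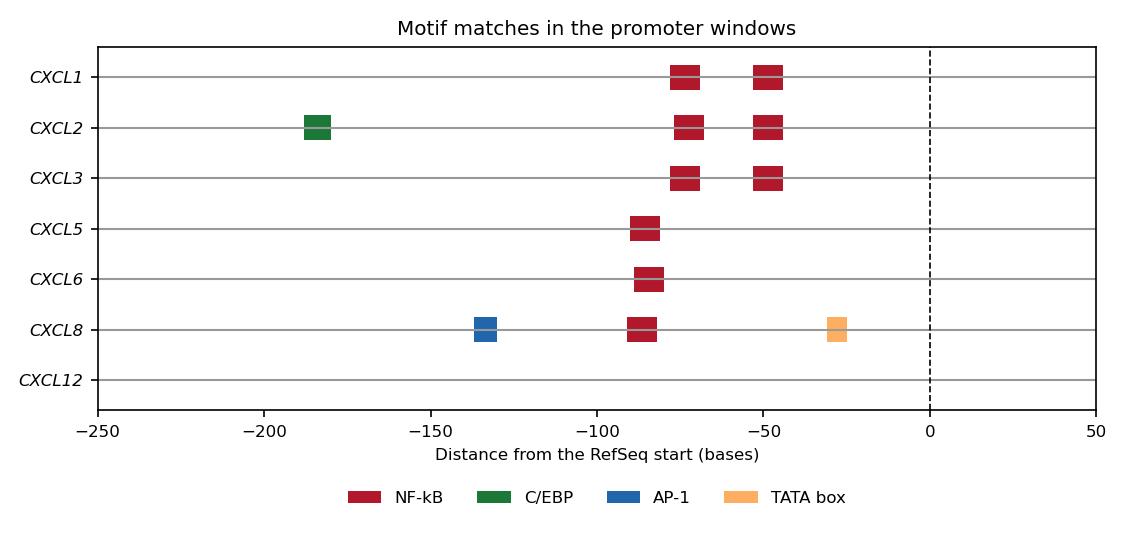
Motif matches in the 300-base RefSeq promoter windows of 7 genes (rows), by distance from the annotated start in bases (horizontal axis, dashed line at the start). NF-κB letters (red) sit 45 to 91 bases before the start in all 6 ELR+ genes, and the CXCL12 window holds no match to any of the 4 motifs.

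**Figure D2:**
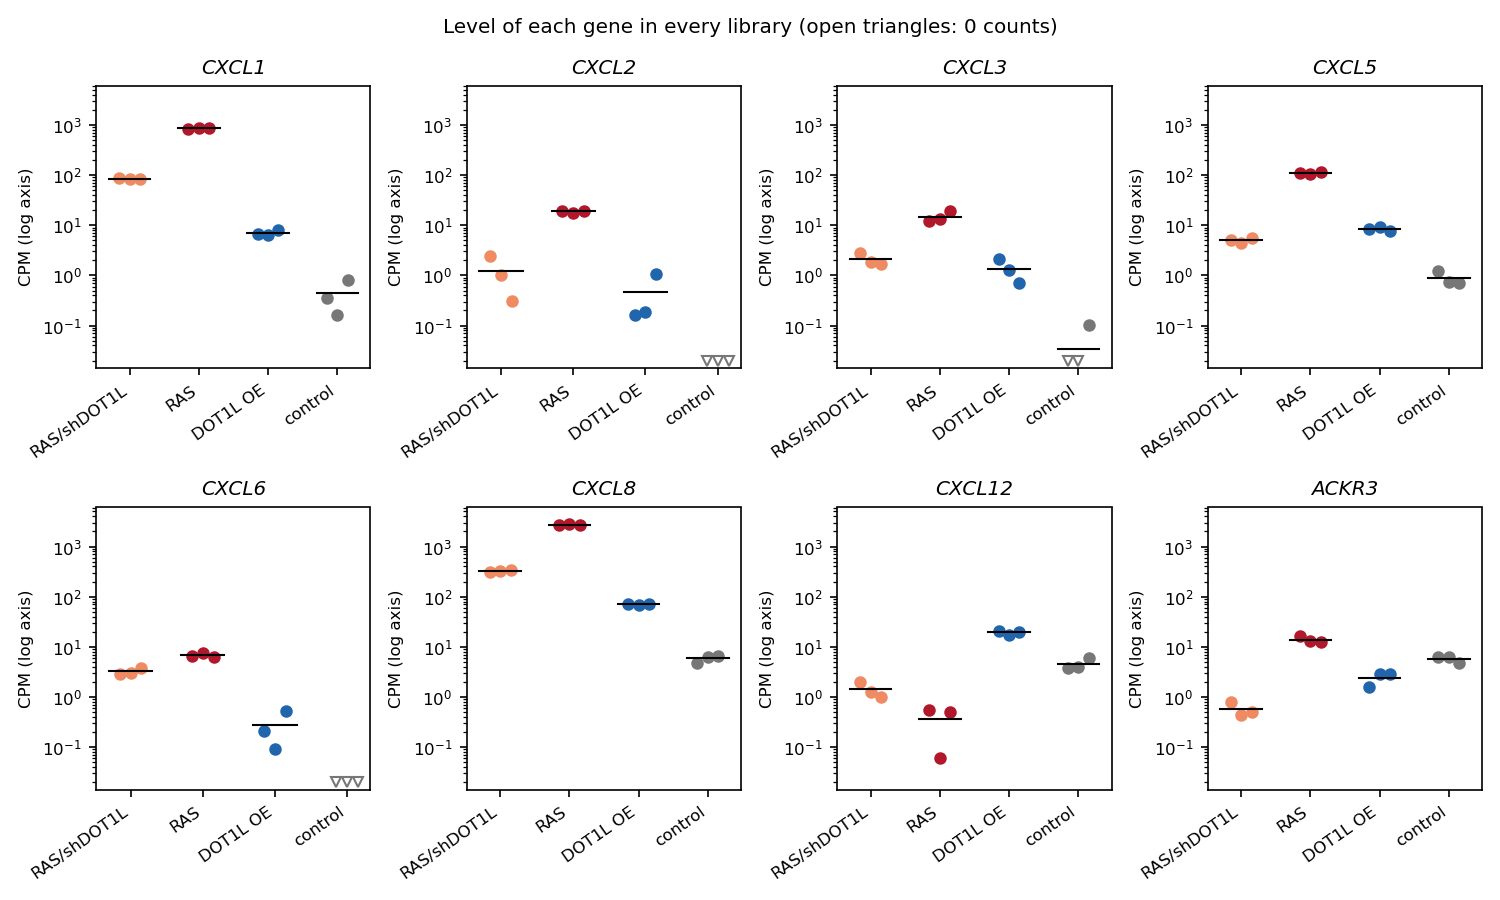
CPM on a log axis for each of 8 genes (panels) in every library (points, 3 per group), with the group mean as a line and libraries with 0 counts as open triangles at the bottom. The ELR+ genes are highest in RAS and lowest in control, CXCL12 is highest in DOT1L OE and lowest in RAS, and ACKR3 is highest in RAS and lowest in RAS/shDOT1L.

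In RAS against control, which asks what the oncogene changed, all 6 ELR+ chemokine genes and ACKR3 were higher and CXCL12 was lower. That is 7 of 8 genes called higher and 1 of 8 lower, against 31.9% of 13554 genes tested called higher and 32.0% lower. The median log2 change of the 8 was 8.66, beside -0.04 over all genes tested, and was 7.75 with CXCL2 and CXCL6, which had no control counts, at their lower bounds. The CPM of the groups did not overlap in any of the 8, which held for 67.7% of all genes tested. In bulk RNA, more cells expressing a gene and more RNA per cell cannot be told apart.

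CXCL8, the interleukin-8 gene, was the most abundant ELR+ transcript per kilobase of exon in every group. It stood at 315, 321 and 340 CPM in RAS/shDOT1L, at 2705, 2751 and 2669 CPM in RAS, at 71.1, 67.8 and 71.1 CPM in DOT1L OE and at 4.80, 6.25 and 6.53 CPM in control. The 4 groups stood apart from each other in every library, with RAS highest and control lowest. CXCL8 was 461-fold higher in RAS versus control (log2 change 8.85, SE 0.06, adjusted p = 1.09e-43 by edgeR). CXCL1, known as GROα and a CXCR2 ligand, held 1347, 1314 and 1335 counts in RAS/shDOT1L, 14261, 14632 and 13456 in RAS, 128, 137 and 171 in DOT1L OE and 7, 3 and 16 in control, with means of 84.8 ± 2.76, 865 ± 19.0, 7.07 ± 0.830 and 0.442 ± 0.329 CPM in that order. Its order of groups was that of CXCL8, again without overlap, and the size of its 1894-fold difference in RAS (log2 change 10.89, SE 0.10, adjusted p = 8.37e-39 by edgeR) rests on few control reads: without control replicate 3 the log2 change was 11.64.

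CXCL5, also called ENA-78, stood at 5.09, 4.45 and 5.61 CPM in RAS/shDOT1L, at 112, 105 and 117 CPM in RAS, at 8.58, 9.15 and 7.72 CPM in DOT1L OE and at 1.24, 0.754 and 0.704 CPM in control. RAS was again highest and control lowest, but DOT1L OE came above RAS/shDOT1L in every library, which no other ELR+ gene showed. CXCL5 was 123-fold higher in RAS versus control (log2 change 6.94, SE 0.14, adjusted p = 3.47e-29 by edgeR).

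CXCL2, CXCL3 and CXCL6 were the scarcest ELR+ transcripts per kilobase in RAS. CXCL2, known as GROβ, held 37, 16 and 5 counts in RAS/shDOT1L, 331, 296 and 298 in RAS, 3, 4 and 23 in DOT1L OE and 0 in each control library. CXCL3, known as GROγ, held 42, 30 and 27 counts in RAS/shDOT1L, 199, 221 and 302 in RAS, 39, 28 and 15 in DOT1L OE and 0, 0 and 2 in control. CXCL6, also called GCP-2, held 44, 47 and 61 counts in RAS/shDOT1L, 110, 123 and 97 in RAS, 4, 2 and 11 in DOT1L OE and 0 in each control library. In all 3 genes RAS stood above every other library, and RAS/shDOT1L and DOT1L OE overlapped for CXCL2 and CXCL3 but not for CXCL6. Against a floor of 3 counts over the control group, a limit that covers counting error only, CXCL2 was at least 364-fold and CXCL6 at least 130-fold higher in RAS. CXCL3 was 356-fold higher in RAS versus control by the fit (log2 change 8.48, SE 0.46, adjusted p = 4.41e-17 by edgeR), a size set by the 2 counts of 1 control library, since without control replicate 3 the log2 change was 11.01.

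CXCL12, the stromal ligand, held 31, 20 and 16 counts in RAS/shDOT1L, 9, 1 and 8 in RAS, 393, 374 and 414 in DOT1L OE and 73, 73 and 121 in control. In CPM it averaged 1.43 ± 0.528 in RAS/shDOT1L, 0.369 ± 0.268 in RAS, 19.3 ± 1.75 in DOT1L OE and 4.59 ± 1.29 in control, an order opposite to that of the ELR+ genes at the RAS end, with no overlap between neighbours. It was 12.3-fold lower in RAS versus control (log2 change -3.62, SE 0.50, adjusted p = 1.57e-07 by edgeR). ACKR3, its scavenging receptor, stood at 0.782, 0.439 and 0.505 CPM in RAS/shDOT1L, at 16.1, 13.0 and 12.6 CPM in RAS, at 1.55, 2.85 and 2.81 CPM in DOT1L OE and at 6.14, 6.14 and 4.67 CPM in control. Ligand and receptor thus differed from control in opposite directions in RAS, where ACKR3 was 2.46-fold higher (log2 change 1.30, SE 0.19, adjusted p = 4.65e-07 by edgeR).

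**Figure D3:**
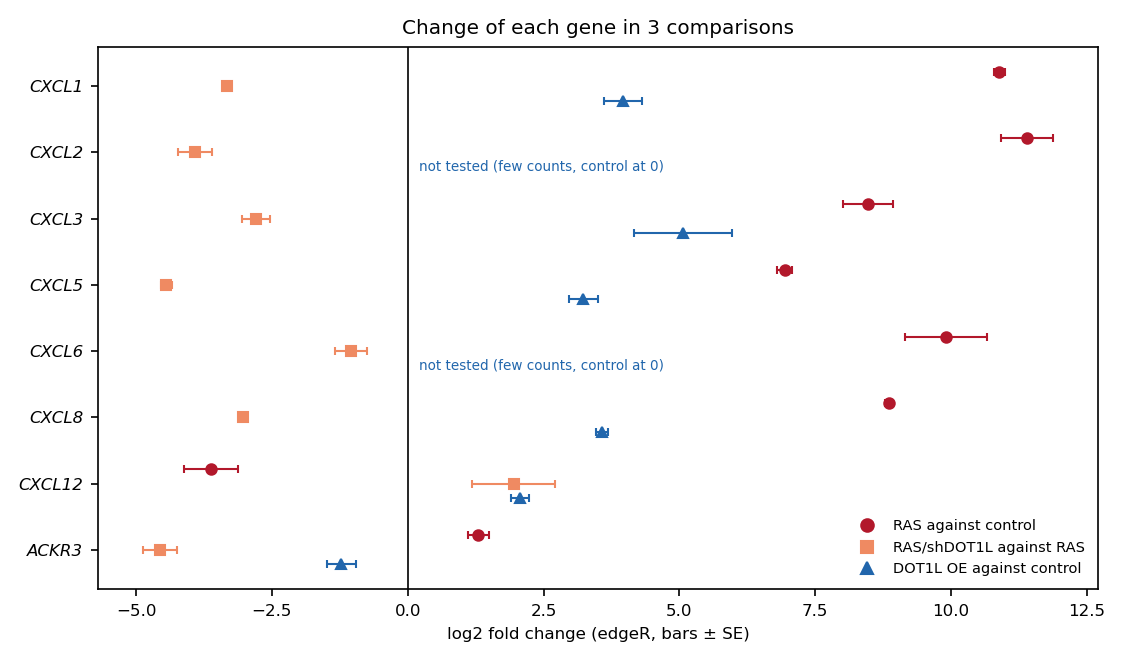
Log2 fold change from edgeR ± SE derived from its F statistic (horizontal axis) of 8 genes (rows) in RAS against control (circles), RAS/shDOT1L against RAS (squares) and DOT1L OE against control (triangles). The ELR+ genes lie right of 0 in RAS against control (6.94 to 11.39, the upper end being CXCL2, whose control libraries held no counts, so that its fitted size depends on the prior count) and left of it in RAS/shDOT1L against RAS (-4.44 to -1.04), CXCL12 lies on the other side of 0 from the ELR+ genes in both, and ACKR3 lies left of 0 in DOT1L OE.

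In RAS/shDOT1L against RAS, which asks what the DOT1L hairpin changed in oncogene-expressing cells, all 6 ELR+ genes and ACKR3 were lower and CXCL12 was higher. That is 7 of 8 genes called lower and 1 of 8 higher, against 26.4% of 13398 genes tested called lower and 26.3% higher, with a median log2 change of -3.19 for the 8 and 0.03 for all genes tested. The groups did not overlap in CPM in any of the 8, nor in 58.7% of all genes tested. These RAS libraries also serve as the RAS side of RAS against control, so the opposite directions of these 2 comparisons are not independent of each other.

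The amount left in RAS/shDOT1L, as a percent of the RAS mean, differed widely between the genes. ACKR3 kept 4.13%, CXCL5 4.53%, CXCL2 6.58%, CXCL1 9.81%, CXCL3 14.2% and CXCL6 47.9%, with CXCL8 between CXCL1 and CXCL3. CXCL6 was 2.06-fold lower (log2 change -1.04, SE 0.29, adjusted p = 0.00256 by edgeR), while its neighbour in promoter sequence, CXCL5, was 21.7-fold lower (log2 change -4.44, SE 0.11, adjusted p = 6.42e-26 by edgeR); the difference between these genes was not tested. CXCL8 was 8.23-fold lower (log2 change -3.04, SE 0.04, adjusted p = 6.2e-34 by edgeR) and CXCL1 10.1-fold (log2 change -3.33, SE 0.05, adjusted p = 3.83e-32 by edgeR). CXCL2 was 15.0-fold lower (log2 change -3.91, SE 0.31, adjusted p = 1.46e-12 by edgeR), or at a log2 change of -4.80 without RAS/shDOT1L replicate 1, and CXCL3 was 6.94-fold lower (log2 change -2.79, SE 0.26, adjusted p = 3.98e-11 by edgeR).

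ACKR3 had the largest fitted fold difference of the 8 genes here, ahead of CXCL5 by less than 1 SE: it was 23.7-fold lower at 0.575 ± 0.182 CPM in RAS/shDOT1L against 13.9 ± 1.94 CPM in RAS (log2 change -4.56, SE 0.31, adjusted p = 1.89e-14 by edgeR). CXCL12 was 3.86-fold higher (log2 change 1.95, SE 0.76, adjusted p = 0.0319 by edgeR), with 16 to 31 counts a library in RAS/shDOT1L and 1 to 9 in RAS. That call was lost when RAS replicate 2 was left out (log2 change 1.44, adjusted p = 0.164 by edgeR), and also without RAS replicate 3 (2.23, 0.0578), without RAS/shDOT1L replicate 1 (1.62, 0.164) and without RAS/shDOT1L replicate 2 (2.03, 0.0669).

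The knockdown left the ELR+ genes above control. In RAS/shDOT1L against control, 5 of 7 genes tested were higher and 2 lower, against 27.9% of 13519 genes called higher and 27.6% lower. The groups did not overlap in any of the 7, nor in 61.8% of all genes tested. CXCL1 was 187-fold (log2 change 7.54, SE 0.19, adjusted p = 5.6e-23 by edgeR), CXCL8 55.6-fold, CXCL3 51.0-fold and CXCL5 5.60-fold higher, CXCL6 was at least 62.2-fold higher, and CXCL2, too low for the filter, was at least 23.7-fold higher with no test. Without control replicate 3, the log2 change was 8.29 for CXCL1 and 8.17, in place of 5.67, for CXCL3. ACKR3 and CXCL12 lay below control in RAS/shDOT1L: ACKR3 was 9.70-fold lower (log2 change -3.28, SE 0.40, adjusted p = 5.37e-08 by edgeR) and CXCL12 3.20-fold lower (log2 change -1.68, SE 0.38, adjusted p = 0.000442 by edgeR). CXCL12 was below control in RAS without the hairpin as well, at 0.369 CPM, whereas ACKR3 was above control there.

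DOT1L OE against control sets cells with added DOT1L, in their own vector and drug, against control cells. The ELR+ genes that could be tested and CXCL12 were higher there and ACKR3 was lower. Of 6 genes tested, 5 were called higher and 1 lower, against 29.9% of 13660 genes called higher and 29.9% lower, and the median log2 change of the 6 was 3.41 beside 0.01 for all genes tested. None of the 6 overlapped between the groups, nor did 64.1% of all genes tested. CXCL8 was higher at 70.0 ± 1.86 CPM in DOT1L OE against 5.86 ± 0.931 CPM in control (log2 change 3.58, SE 0.11, adjusted p = 1.95e-23 by edgeR), CXCL1 was 15.6-fold higher (log2 change 3.97, SE 0.35, adjusted p = 1.53e-11 by edgeR) and CXCL5 9.40-fold (log2 change 3.23, SE 0.27, adjusted p = 3.25e-12 by edgeR). CXCL3 was 33.4-fold higher by the fit (log2 change 5.06, SE 0.90, adjusted p = 1.16e-05 by edgeR), again set by 2 control counts, and without control replicate 3 the log2 change was 7.76 for CXCL3 and 4.72 for CXCL1. CXCL2 and CXCL6 did not pass the filter on low counts. With control at 0, CXCL2 was at least 9.40-fold and CXCL6 at least 5.32-fold higher in DOT1L OE, although 23 of the 30 CXCL2 counts and 11 of the 17 CXCL6 counts came from replicate 3.

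CXCL12 and ACKR3 each set DOT1L OE apart from RAS. CXCL12 was 4.19-fold higher in DOT1L OE versus control (log2 change 2.07, SE 0.17, adjusted p = 1.82e-12 by edgeR), whereas in RAS it was below control. ACKR3 was 2.33-fold lower in DOT1L OE versus control (log2 change -1.22, SE 0.26, adjusted p = 0.000168 by edgeR), whereas in RAS it was above control. Set against each other directly, RAS exceeded DOT1L OE in 7 of 8 genes and lay below it in 1, against 32.3% of 13648 genes called higher and 33.2% lower. None of the 8 overlapped, nor did 69.8% of all genes tested. CXCL1 was 121-fold (log2 change 6.92, SE 0.07, adjusted p = 1.72e-23 by edgeR), CXCL8 38.5-fold, CXCL2 38.2-fold, CXCL6 23.7-fold, CXCL5 13.1-fold, CXCL3 10.9-fold and ACKR3 5.72-fold higher in RAS. Without DOT1L OE replicate 3, the log2 change was 6.70 in place of 5.26 for CXCL2 and 5.42 in place of 4.57 for CXCL6. CXCL12 was 51.6-fold lower in RAS than in DOT1L OE (log2 change -5.69, SE 0.30, adjusted p = 2.4e-12 by edgeR), its largest difference between any pair of groups.

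RAS/shDOT1L and DOT1L OE did not fall in 1 order. Of the 8 genes, 3 were called higher in RAS/shDOT1L and 3 lower, against 32.2% of 13645 genes called higher and 32.4% lower. The groups did not overlap in 6 of the 8, nor in 69.1% of all genes tested. These counts lay near the shares over all genes. CXCL1 was 11.9-fold, CXCL6 11.3-fold and CXCL8 4.61-fold higher in RAS/shDOT1L than in DOT1L OE. CXCL5 was 1.69-fold lower in RAS/shDOT1L (log2 change -0.76, SE 0.20, adjusted p = 0.00279 by edgeR), ACKR3 4.19-fold and CXCL12 13.6-fold lower. CXCL2 and CXCL3 overlapped between the groups and were not called, at log2 changes of 1.34 ± 0.77 SE (adjusted p = 0.136 by edgeR) and 0.62 ± 0.47 SE (adjusted p = 0.255 by edgeR). CXCL2 passed the test without DOT1L OE replicate 3 (log2 change 2.77, adjusted p = 0.0262 by edgeR), which also moved CXCL6 to a log2 change of 4.34 in place of 3.50.

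Per kilobase of exon, which allows genes to be compared, the summed level of the 6 ELR+ transcripts was 193 ± 4.56 CPM per kb in RAS/shDOT1L, 1751 ± 24.8 in RAS, 36.8 ± 1.24 in DOT1L OE and 2.97 ± 0.426 in control. CXCL8 made up most of this sum in every group, at 64.9% ± 1.58 in RAS/shDOT1L, 59.8% ± 0.354 in RAS, 73.5% ± 0.797 in DOT1L OE and 76.2% ± 7.65 in control. CXCL1 came next in RAS/shDOT1L (32.2% ± 1.17), RAS (36.3% ± 0.338) and DOT1L OE (14.1% ± 1.25). In control it held 10.5% ± 6.48, where the mean of CXCL5 lay above it. CXCL5 took 1.07% ± 0.0990 in RAS/shDOT1L, 2.61% ± 0.177 in RAS, 9.49% ± 1.11 in DOT1L OE and 12.9% ± 5.75 in control. For these 3 genes the mean shares in DOT1L OE lay nearer to those of control than to those of RAS, a description with no test, and control shares spread widely, on few reads. CXCL6 ranked the fourth of the 6 in RAS/shDOT1L and last in RAS, with 0.730%, 0.764% and 0.952% in RAS/shDOT1L, against 0.185%, 0.205% and 0.175% in RAS. CXCL2 averaged 0.463% in RAS/shDOT1L and 0.772% in RAS, and CXCL3 averaged 0.492% and 0.382%.

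**Figure D4:**
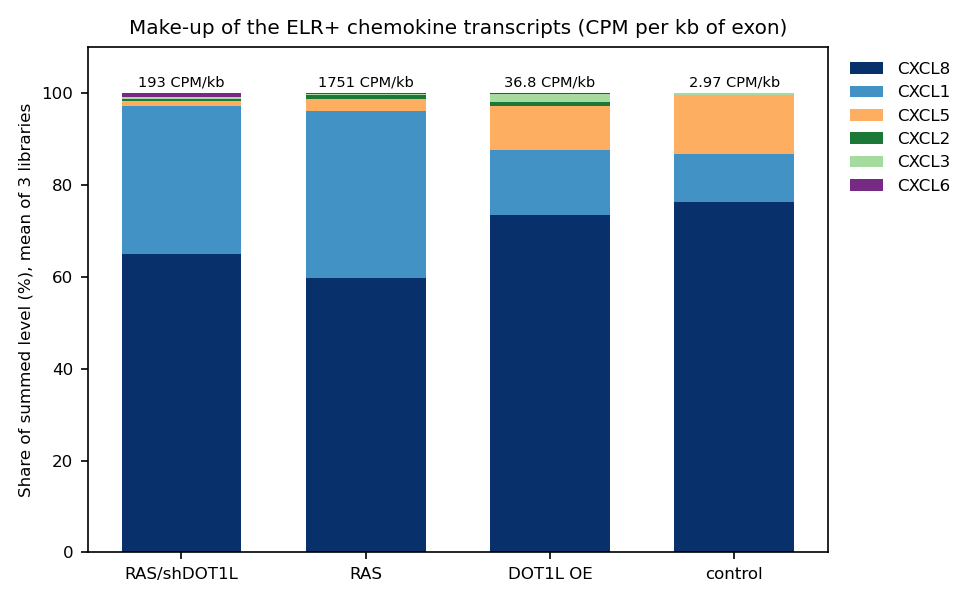
Mean share (percent, vertical axis) of each ELR+ gene in their summed level per kilobase of exon, with 1 stacked bar per group (3 libraries each) and the summed level above it. CXCL8 and CXCL1 fill most of the RAS/shDOT1L and RAS bars, and CXCL5 takes 9.49% in DOT1L OE and 12.9% in control.

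On the same scale, CXCL12 and ACKR3 can be set beside each other. ACKR3 averaged 0.278 ± 0.0881 CPM per kb in RAS/shDOT1L, 6.72 ± 0.937 in RAS, 1.16 ± 0.358 in DOT1L OE and 2.73 ± 0.409 in control. CXCL12 averaged 0.233 ± 0.0859, 0.0601 ± 0.0436, 3.14 ± 0.284 and 0.748 ± 0.210 CPM per kb in the same order. The receptor transcript thus exceeded the ligand transcript in RAS and control, the ligand exceeded the receptor in DOT1L OE, and in RAS/shDOT1L their means lay within 1 SD of each other.

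For the gene lists of the pathway, the shares of all genes tested that were called serve as background: 31.9% higher and 32.0% lower in RAS against control, 26.3% higher and 26.4% lower in RAS/shDOT1L against RAS, and 29.9% in each direction in DOT1L OE against control. Of 10 other CXC ligands, CXCL10, CXCL16 and PF4V1 passed the filter in RAS against control, and the other 7 had at most 18 counts in any group of 3 libraries. Per kilobase of exon, CXCL10 (4.73 CPM per kb) and PF4V1 (3.38) in RAS were at about the level of CXCL6 (3.30 ± 0.318). CXCL10, an interferon-induced ligand of CXCR3, averaged 2.57 ± 1.54 CPM in RAS/shDOT1L, 5.56 ± 1.30 in RAS, 0.658 ± 0.208 in DOT1L OE and 2.54 ± 0.503 in control. It was 2.18-fold higher in RAS versus control (adjusted p = 0.00178 by edgeR), 2.12-fold lower in RAS/shDOT1L versus RAS (adjusted p = 0.0136 by edgeR, lost without RAS replicate 3, at 0.071, and without RAS/shDOT1L replicate 1, at 0.075) and, unlike the ELR+ genes, 3.79-fold lower in DOT1L OE versus control (adjusted p = 0.00032 by edgeR). PF4V1, a platelet factor 4 variant that sits in the ELR+ cluster, held 24, 46 and 20 counts in RAS/shDOT1L, 32, 34 and 56 in RAS, 5, 6 and 5 in DOT1L OE and 0 in control. It was at least 48.0-fold higher in RAS versus control and, in RAS/shDOT1L against RAS, at a log2 change of -0.38 ± 0.48 SE that was not called (adjusted p = 0.537 by edgeR).

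Of the 11 other CXC and atypical receptor genes, 1 could be tested in RAS against control and was not called, and CXCR1, CXCR2, CXCR5, ACKR1 and GPR182 had no count in any library. The receptors of the ELR+ ligands were therefore not detectable at this depth. CXCR4, the signalling receptor of CXCL12, held 25, 48 and 43 counts in RAS/shDOT1L, 15, 15 and 8 in RAS, 2, 1 and 2 in DOT1L OE and 0, 1 and 0 in control. It was 3.19-fold higher in RAS/shDOT1L versus RAS (log2 change 1.67, SE 0.58, adjusted p = 0.0145 by edgeR), a call lost without RAS replicate 3 (0.0605), without RAS/shDOT1L replicate 2 (0.0815) and without RAS/shDOT1L replicate 3 (0.0563).

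Of 8 genes that act on CXCL12 and ACKR3, all tested, 5 were higher and 1 lower in RAS against control, 1 higher and 4 lower in RAS/shDOT1L against RAS, and 4 higher and 2 lower in DOT1L OE against control. The median log2 changes were 0.61, -0.42 and 0.30, beside -0.04, 0.03 and 0.01 for all genes tested. With a GC offset, HMGB1 and GRK2 lost their calls in RAS against control. In RAS/shDOT1L against RAS, GRK2 lost its call and GRK6 stood at 0.00 (adjusted p = 0.99 by edgeR). DPP4, a surface protease that clips CXCL12, averaged 64.9 ± 2.83 CPM in RAS/shDOT1L, 145 ± 5.88 in RAS, 35.4 ± 2.89 in DOT1L OE and 54.5 ± 1.27 in control, highest in RAS and lowest in DOT1L OE. It was 2.65-fold higher in RAS versus control (adjusted p = 3.65e-19 by edgeR) and 2.20-fold lower in RAS/shDOT1L versus RAS (adjusted p = 2.57e-15 by edgeR). HMGB1, which forms a complex with CXCL12, averaged 311 ± 8.86 CPM in DOT1L OE and 142 ± 7.75 in control, 2.19-fold higher (adjusted p = 7.1e-19 by edgeR).

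Upstream of the ELR+ genes, 16 interleukin-1 and NF-κB relay genes were listed. Of 14 tested, 6 were higher and 5 lower in RAS against control (median log2 change 0.04, beside -0.04 for all genes), 1 higher and 8 lower in RAS/shDOT1L against RAS (median -0.45, beside 0.03) and 7 higher and 4 lower in DOT1L OE against control (median 0.20, beside 0.01). IL1B averaged 326 ± 18.5 CPM in RAS/shDOT1L, 2976 ± 24.7 in RAS, 35.3 ± 3.71 in DOT1L OE and 0.254 ± 0.221 in control, the order of CXCL1 and CXCL8. IRAK2, an IRAK family member of the receptor complex, was 8.20-fold higher in RAS versus control (adjusted p = 5.08e-24 by edgeR) and 4.58-fold lower in RAS/shDOT1L versus RAS (adjusted p = 4.49e-22 by edgeR). In DOT1L OE, the receptor gene IL1R1 averaged 96.7 ± 3.63 CPM against 45.0 ± 1.94 in control, 2.16-fold higher (adjusted p = 2.16e-15 by edgeR), and IL1RAP, its co-receptor, was 2.93-fold lower (adjusted p = 7.57e-13 by edgeR).

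Among 13 genes for transcription factors and cofactors that act on CXC promoters, 12 were tested in RAS against control and all 12 were higher, 9 of 13 were lower and none higher in RAS/shDOT1L against RAS, and 6 of 13 were higher and 2 lower in DOT1L OE against control. The median log2 changes were 1.53, -0.46 and 0.15, beside -0.04, 0.03 and 0.01 for all genes tested. JUN was called higher in RAS against control at a log2 change of only 0.12 (adjusted p = 0.0431 by edgeR). The fit with a GC offset was read for only up to 4 called genes of a list. The part of the GC skew of the RAS libraries in these counts was therefore not tested. CEBPB averaged 148 ± 1.87 CPM in RAS/shDOT1L, 391 ± 9.45 in RAS, 287 ± 3.99 in DOT1L OE and 81.8 ± 7.09 in control, so in DOT1L OE it came closer to its RAS level than any ELR+ gene did. NFKBIZ, an NF-κB cofactor, was 5.44-fold higher in RAS versus control (adjusted p = 1.67e-22 by edgeR) and 2.13-fold lower in RAS/shDOT1L versus RAS (adjusted p = 7.46e-14 by edgeR). CEBPD was 3.89-fold higher in RAS versus control (adjusted p = 6.81e-22 by edgeR) but in RAS/shDOT1L against RAS its log2 change was -0.01 ± 0.07 SE (adjusted p = 0.932 by edgeR).

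The 5 inhibitor and feedback genes of NF-κB were all higher in RAS against control, 4 were lower and 1 higher in RAS/shDOT1L against RAS, and 2 were higher and 3 lower in DOT1L OE against control. Their median log2 changes were 1.62, -0.64 and -0.23, beside the same medians of -0.04, 0.03 and 0.01 for all genes. With a GC offset, NFKBIB lost its call in RAS against control (log2 change 0.16, adjusted p = 0.1 by edgeR). TNIP1 likewise lost its call in RAS/shDOT1L against RAS (-0.01, adjusted p = 0.785 by edgeR). TNFAIP3, which encodes the deubiquitinase A20, was 6.41-fold higher in RAS versus control (adjusted p = 2.07e-15 by edgeR), 3.78-fold lower in RAS/shDOT1L versus RAS (adjusted p = 1.71e-11 by edgeR) and 3.32-fold higher in DOT1L OE versus control (adjusted p = 3.54e-11 by edgeR). NFKBIA, which encodes IκBα, was 4.03-fold higher, 2.83-fold lower and 1.59-fold higher in the same comparisons (edgeR adjusted p = 2.04e-22, 5.76e-18 and 1.2e-08). A list of 8 genes that control the decay or stability of mRNAs was also examined. Of these, 6 were higher and 2 lower in RAS against control. In RAS/shDOT1L against RAS, 2 were higher and 3 lower, and in DOT1L OE against control 5 were higher and 2 lower. Their medians were 0.39, -0.04 and 0.40, and the counts in RAS/shDOT1L against RAS lay near the background shares for a list of 8. With a GC offset, KHSRP was no longer called in RAS against control (-0.02, adjusted p = 0.707 by edgeR). Nor was ZFP36 in RAS/shDOT1L against RAS (-0.33, adjusted p = 0.0525 by edgeR). ZC3H12A, a nuclease that degrades chemokine mRNAs, averaged 107 ± 4.61 CPM in RAS/shDOT1L, 240 ± 8.86 in RAS, 10.4 ± 1.13 in DOT1L OE and 8.47 ± 1.31 in control, and was 28.3-fold higher in RAS versus control (adjusted p = 3.48e-31 by edgeR).

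Other genes around the chromosome 4 cluster were also examined. Of 14 such genes, 6 were tested in RAS against control, with 3 higher and none lower. In RAS/shDOT1L against RAS, 1 of 7 tested was higher and 2 were lower. In DOT1L OE against control, 3 of 5 tested were higher and none lower. The gene higher in RAS/shDOT1L against RAS was AFP (log2 change 3.90, adjusted p = 0.000947 by edgeR). It held 29, 18 and 15 counts in RAS/shDOT1L and 0, 1 and 3 in RAS. EREG, which encodes the growth factor epiregulin, averaged 19.4 ± 2.86 CPM in RAS/shDOT1L, 178 ± 3.19 in RAS, 47.9 ± 5.48 in DOT1L OE and 11.4 ± 0.249 in control. AREG, which encodes amphiregulin, averaged 6.13 ± 1.38, 44.9 ± 2.50, 36.3 ± 4.84 and 1.07 ± 0.370 CPM in the same order. Both placed DOT1L OE above RAS/shDOT1L, the order of CXCL5 and not that of CXCL8. AREG was 41.6-fold higher in RAS versus control (adjusted p = 1.02e-22 by edgeR) and 33.8-fold higher in DOT1L OE versus control (adjusted p = 1.61e-21 by edgeR), while in RAS/shDOT1L it was 7.24-fold lower than in RAS (adjusted p = 5.08e-17 by edgeR). ANKRD17, which lies outside the chemokine genes, had log2 changes of 0.17 ± 0.09 SE in RAS against control (adjusted p = 0.0978 by edgeR) and 0.16 ± 0.09 SE in RAS/shDOT1L against RAS (adjusted p = 0.126 by edgeR). ANKRD17 was called higher in DOT1L OE against control (log2 change 0.46, edgeR adjusted p = 1.52e-05) and in RAS/shDOT1L against control (0.32, 0.00605). It was called lower in RAS against DOT1L OE (-0.29, 0.00174).

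As a description, the genes whose log2 CPM pattern over the 12 libraries lay nearest to each member were found among 12944 named genes, by the root mean square (RMS) difference after centring each gene on its own mean. The 12 points of each pattern share 4 groups, so nearness mostly reflects group means. CXCL1 lay nearest to IL1A (RMS difference 0.97 log2 units), CSF3 (1.06) and IL1B (1.22), cytokines of the SASP. CXCL8 lay nearest to MMP3 (0.52), a stromelysin, then WNT7B (0.82) and FOXQ1 (1.00), and CXCL3 to the collagenase MMP1 (0.52), MMP3 (0.60) and PREX1 (0.70). CXCL2 lay nearest to LINC02392 (0.89), MMP3 (0.90) and IL6 (0.92). CXCL5 and CXCL6 had other neighbours: SLC16A6 (0.67), THBD (0.74) and ATP6V0D2 (0.82) for CXCL5, and CTSS (0.49), TAGLN3 (0.60) and ZC3H12A (0.62) for CXCL6. CXCL12 lay nearest to the mitotic kinesin KIF11 (0.73), DLK1 (0.73) and LZTS1 (0.75), and ACKR3 to MAP1LC3B (0.68), JUP (0.74) and ATP13A3 (0.80). No gene appeared among the 3 nearest of every ELR+ member.

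The RAS libraries had relatively more reads on GC-rich transcripts, while several ELR+ genes have AT-rich exons (GC content 32.5% in CXCL8, 37.1% in CXCL5 and 39.2% in CXCL6). With a GC offset in the fit, all 8 genes kept their direction and their call in RAS against control and in RAS/shDOT1L against RAS. The log2 change of CXCL8 was then 9.47 in RAS against control and -3.45 in RAS/shDOT1L against RAS, and that of CXCL6 was 10.19 and -1.37.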

How the data were processed

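The authors sequenced poly(A)-enriched RNA from 12 IMR90 libraries as paired-end reads, aligned them to GRCh38 with STAR, and deposited raw integer counts for Ensembl genes, neither normalized nor pooled (STAR 2.6.1 and DESeq2 2 per the submitters' processing notes). The strand setting is not given in the sources used here. Totals of 16128055 to 19503457 counts per library set the precision.

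Gene IDs were matched to symbols (93.5% of 48162 IDs were found in the name table and 69.8% had a symbol), and exon lengths, GC content and coordinates came from GENCODE release 44. Each of 6 comparisons was fitted on its own 6 libraries with edgeR 4.0.16 in R 4.3.3 (filterByExpr, TMM scaling, quasi-likelihood F test, two-sided, Benjamini-Hochberg over all genes tested, adjusted p under 0.05). Where a group held 0 counts, a fold was given as a lower bound against 3 counts over the group. CPM and shares carry counting error, which weighs most where counts are few. Libraries of the same group also differed beyond counting error, with a chi-square per degree of freedom of 4.33 to 7.87 between pairs. Samples were grouped by the labels. The members and gene lists were chosen with earlier results of these data known. Named genes were the 8 members, DOT1L and HRAS, genes of each list with the smallest p among those called (up to 4), a few list genes added after their values were seen, and the 3 nearest patterns per member. No test of whole lists was run. Of the list genes, only those up to 4 per list with the smallest p were checked under the alternatives below. The test was tested on simulated counts with known changes, and smaller changes were recovered less often than larger ones. The share of false calls ran from 4.26% in RAS/shDOT1L against RAS to 9.55% in DOT1L OE against control, at a threshold of 0.05. Far fewer genes were changed in the simulations than were called in the data, so these shares do not carry over to the data. Alternatives were DESeq2 size factors, library size alone, no filter, a CPM filter, the DESeq2 1.42.0 Wald test, limma-voom 3.58.1, 1 fit over 4 groups, a replicate block, a GC offset over 20 bins, the last 2 together, each library left out, and exon lengths from the longest transcript. Protein sequences were not used here.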

Additional observations from a re-analysis of the deposited data

How the results depend on the processing

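Over 717 refits of single members under the alternatives, 709 kept direction and call, 6 lost the call, 2 gained it and none turned direction. The 6 losses all concern CXCL12 in RAS/shDOT1L against RAS, where the count of members called higher was 0 in place of 1 without a filter beyond 1 count (log2 change 1.94, edgeR adjusted p = 0.0644), with the CPM filter (which removed CXCL12) and with a replicate block together with a GC offset (1.99, 0.0575), and 0 to 1 when a library was left out. The 2 gains concern CXCL2 in RAS/shDOT1L against DOT1L OE, called in 1 fit over all 4 groups (1.34, 0.0287) and without DOT1L OE replicate 3. Without a filter, the DOT1L OE against control count of members higher was 7 in place of 5, since CXCL2 and CXCL6 were then tested. Library size as the only scaling shifted the median log2 change of all genes by -0.20 in RAS against control and by -0.28 in RAS against DOT1L OE, with no member's call changed. Among list genes, with a GC offset KHSRP turned in RAS against control (-0.02, adjusted p = 0.707; with the replicate block too -0.02, 0.73) and GRK6 in RAS/shDOT1L against RAS (0.00, 0.99; with the block 0.00, 0.999), and the calls of NFKBIB, HMGB1 and GRK2 in RAS against control and of TNIP1, ZFP36 and GRK2 in RAS/shDOT1L against RAS were lost; the cause was not tested. Same-numbered libraries did not deviate together (correlations of deviations -0.02 to 0.04), and the replicate block alone changed no member's call: RAS against control kept 7 members higher and 1 lower. Depth limits CXCL2, CXCL3, CXCL5, CXCL6, CXCL12 and ACKR3 most, each with under 100 counts in every library of at least 2 of the 4 groups.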
